A study of Mus musculus with 6 samples.

Results

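The proteasome is the large protease that degrades proteins tagged with ubiquitin. Its 20S core is a barrel of alpha and beta rings in which 3 beta subunits cut peptide bonds, and its 19S regulatory particle recognises, unfolds and feeds in the substrate. In lymphocytes the cutting subunits are partly exchanged for interferon-inducible versions, which makes the immunoproteasome, known for producing peptides for MHC class I. The genes described here are all protein-coding genes of the deposited table whose symbols start with Psma, Psmb, Psmc, Psmd, Psme, Psmf or Psmg. They number 48 of the 14864 genes in the table, out of 50 such genes in the GENCODE M21 annotation. Psma8, a testis form of an alpha subunit, and Psmb11, the catalytic subunit of the thymus form, were not among the rows and were not analysed here. Of the 48, Psmc3ip carries the prefix only: it encodes a factor of meiotic recombination that binds an ATPase subunit and is no part of the proteasome.

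Bulk RNA came from marginal zone B cells, a B cell subset at the edge of the splenic white pulp, after flow sorting from spleens of C57BL/6 mice aged 8 weeks. The labels give 3 libraries as wild type (WT) and 3 as a conditional knockout of CK2α (cKO), the catalytic subunit of protein kinase CK2. The comparison asks how expression differs between these genotypes. The sources used here do not give the Cre line, the deleted exons, the sort gates or the sex. Libraries of a group are numbered but not said to come from separate mice. The p-values therefore set the difference between groups against the spread between these libraries only, and that spread may be technical.

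Read counts recovered from the values came to between 18778776 and 23503756 per library. Values below are these counts after the authors' division by 1 factor per library, called normalised reads. For Csnk2a1, the CK2α gene, the WT mean was 3957 ± 105 normalised reads and the cKO mean 4045 ± 87.6 (SD, n = 3 per group), with a log2 difference of 0.03 ± 0.05 (SE, limma adjusted p = 0.734). The targeted gene therefore did not check the labels, since a count per gene does not resolve a deleted exon, and every direction is that of the libraries as labelled. The 6 general B cell markers summed to between 165187 and 176643 in WT and between 169006 and 174110 in cKO, and the 7 marginal zone markers, of which 4 rose, to between 110797 and 119240 in WT and between 113944 and 141572 in cKO. The 5 follicular B cell markers, of which 3 fell, summed to between 32645 and 36333 in WT and between 27357 and 33688 in cKO. By the rule given below, 5.08% of all genes tested rose and 4.97% fell. Plasma cell markers summed to 2202 to 2732 over the 6 libraries, with Tnfrsf17 not among the rows. Sums for other cells were far smaller: at most 52.8 for T cells, with Cd3d, Cd3e, Cd3g and Trac not among the rows, at most 31.3 for NK cells, at most 151 for neutrophils and at most 409 for dendritic cells. Macrophage and monocyte markers summed to between 1446 and 2585 in WT and between 1058 and 2494 in cKO, the highest in WT replicate 2 and cKO replicate 1. Erythroid and platelet markers reached 9412 in WT replicate 2 and 4354 in cKO replicate 1, against at most 1214 elsewhere. These sums overlapped between the groups except for the T cell list (34.8 to 52.8 in WT, 18.6 to 23.2 in cKO). For the marginal zone and follicular lists the overlap came from cKO replicate 2 alone, at 113944 and 33688. Replicates 1 and 3 of cKO lay above all WT libraries on the marginal zone list, at 141572 and 139987. They lay below all WT libraries on the follicular list, at 27600.5 and 27357. The part of all these marker sums in the results was not tested.

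Most proteasome genes lay slightly higher in cKO, and 10 of them passed the test. The log2 difference was taken as cKO minus WT of log2(value + 1). It lay above 0 for 47 of the 48 genes, where 49.8% of all 14855 genes tested lay above 0. The median of the 48 was 0.14, a 10.2% higher level, against a median of -0.00086 over all genes tested. The scaling of the libraries holds the all-gene median near 0, and with it the share above 0. These all-gene values are therefore a reference and not a result. A gene is said to have risen when its Benjamini-Hochberg adjusted p over all genes tested was under 0.05 in limma. By that rule 10 genes, or 20.8%, rose and 0 fell, where 10.1% of all genes tested passed, 5.08% as higher and 4.97% as lower. At an unadjusted limma p under 0.05, 25 were higher (against 13.5% of all genes tested) and 0 were lower (against 13.3%), and edgeR and DESeq2 also called 0 lower. All cKO values exceeded all WT values for 23 of the 48 (47.9%, against 15.9% of all genes tested), and lay below them for 0 (against 15.6%). The 8147 genes with a mean of 200 to 5000 normalised reads, a range that holds all members but Psmc3ip, had a median of 0.0081, and 5.49% of them rose. All 48 passed the filter on low values, a mean of 10 over the 6 libraries.

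The differences were small and every call was close to the threshold. The 10 genes that rose did so by 15.6% to 22.6%, with adjusted p values from 0.021 to 0.0466. Together the 48 genes took 0.332%, 0.362% and 0.348% of the recovered reads in the WT libraries, in the order of replicates 1, 2 and 3 used throughout, and 0.382%, 0.387% and 0.375% in the cKO libraries. The groups did not overlap in this share, with means of 0.347% ± 0.0151 and 0.381% ± 0.00583 (SD, n = 3 each). Relative to each gene's mean over the 6 libraries, the median gene stood at -0.14, -0.011 and -0.07 on the log2 scale for WT, and at 0.08, 0.10 and 0.05 for cKO. The same median over all genes tested was between 0.00267 and 0.0029 in each library, where the scaling of the libraries holds it nearly equal. WT replicate 1 was the lowest of the 6 libraries for 32 of the 48 genes, and it also had the fewest recovered reads. WT replicate 2 exceeded both other WT libraries for 37 of the 48. Jun, an immediate early gene looked at after these orders were seen, ran the other way, at 15955, 12531 and 15371 for WT against 9686, 6588 and 8427 for cKO. For Fos, looked at with it, every cKO library likewise lay below every WT library. Egr1, also an early gene, overlapped between the groups, at 1105, 624 and 1293 for WT against 596, 1032 and 806 for cKO. The part of depth and of early gene levels in the proteasome difference was not tested.

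**Figure D1:**
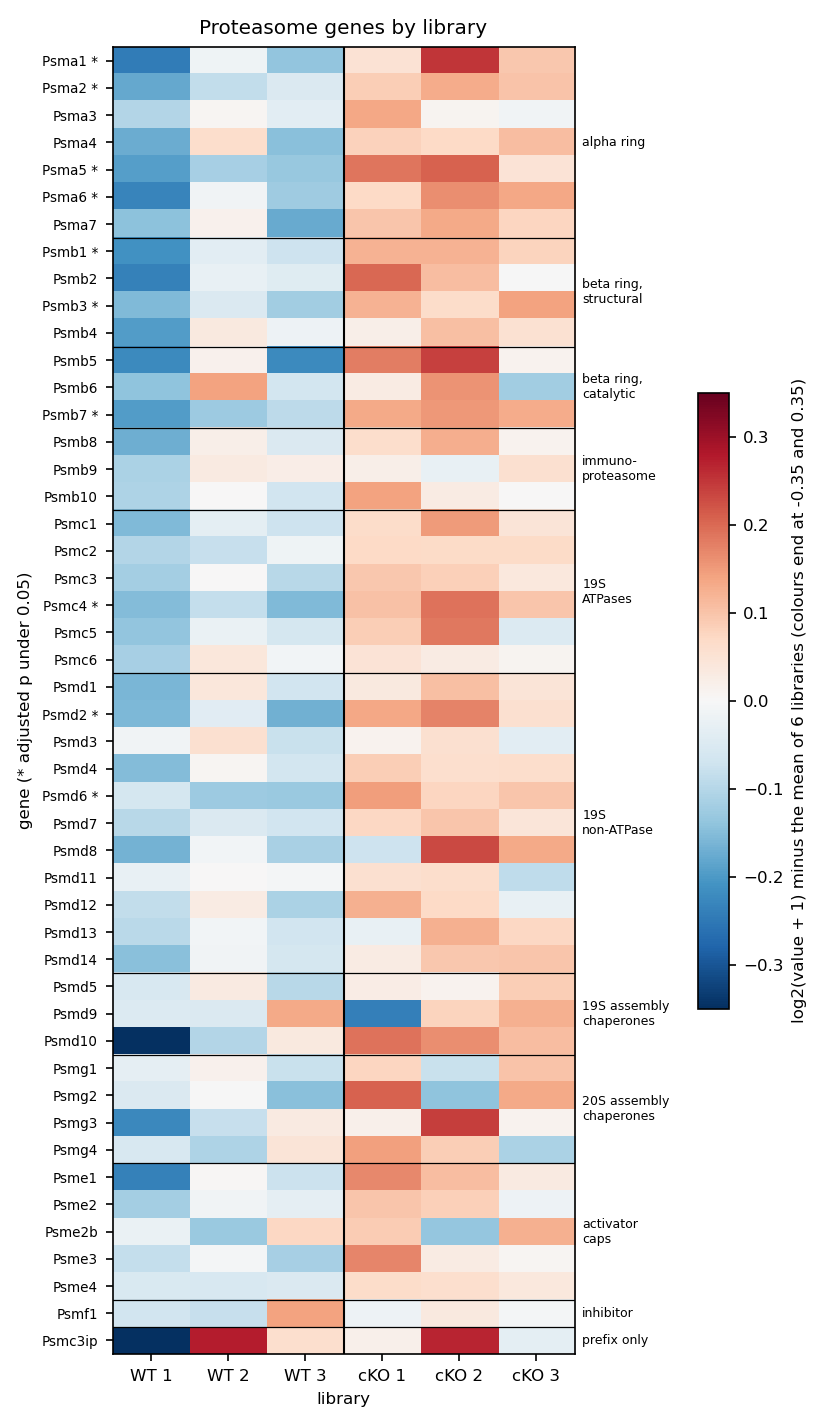
Heat map of the 48 genes (rows, grouped by role) in the 6 libraries (columns); colour is log2(value + 1) minus the gene's mean over the 6 libraries, and a star marks an adjusted p under 0.05. WT replicate 1 is the lowest library for 32 of the 48 genes, and WT replicate 2 is the WT library nearest to cKO.

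The alpha rings form the gates of the barrel. Of their 7 genes measured here 4 rose, with a median log2 difference of 0.21 and the lowest at 0.09. Psma5 (ENSMUSG00000068749) had WT values of 865, 912 and 902 normalised reads and cKO values of 1125, 1142 and 1022. Every cKO library exceeded every WT library, and the log2 difference was 0.29 ± 0.07 (adjusted p = 0.0227). Psma1 gave 1668, 1953 and 1796 in WT and 2046, 2348 and 2110 in cKO (0.26 ± 0.07, adjusted p = 0.0464). Psma6 went from 1265, 1472 and 1362 to 1560, 1662 and 1631 (0.25 ± 0.07, adjusted p = 0.0436). Psma2 went from 1519, 1619 and 1659 to 1823, 1879 and 1842 (0.21 ± 0.06, adjusted p = 0.0428). In none of these 4 did the groups overlap, and WT replicate 1 was the lowest library in each. Psma7 and Psma4 did not overlap either but missed the threshold, at 0.20 and 0.17 (adjusted p = 0.0641 and 0.145). Psma3 had the lowest difference of the ring, with 1901, 2051 and 1991 in WT and 2243, 2053 and 2022 in cKO. Its groups overlapped, and the 95% interval of the change ran from -3.13% to 16.6%.

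In the beta rings, 4 genes encode subunits with no cutting activity, and 2 of these rose. Psmb3 went from 1174, 1262 and 1199 normalised reads in WT to 1422, 1365 and 1438 in cKO, a log2 difference of 0.22 ± 0.06 (adjusted p = 0.0431). Psmb1 went from 2098, 2371 and 2313 to 2643, 2644 and 2565 (0.21 ± 0.06, adjusted p = 0.0466). Neither gene had a WT library within the cKO range, but DESeq2 did not call Psmb3. Psmb2 gave 0.20 without overlap (adjusted p = 0.132). Psmb4 was the lowest of the 4, with 1989, 2332 and 2253 against 2312, 2452 and 2367, where WT replicate 2 lay inside the cKO range (0.12, adjusted p = 0.272).

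Of the 3 constitutive cutting subunits 1 rose, and the difference between the 3 was not tested. Psmb7 (ENSMUSG00000026750), which provides the trypsin-like activity, rose from 822, 863 and 884 normalised reads in WT to 1034, 1047 and 1031 in cKO (0.28 ± 0.06, adjusted p = 0.0213). The 3 cKO libraries lay close together and above all WT libraries. Its exons overlap those of Nek6 on the opposite strand, so part of its reads is uncertain. Psmb5 (ENSMUSG00000022193), the chymotrypsin-like subunit and the target of the drug bortezomib, had WT values of 759, 896 and 759 and cKO values of 1003, 1047 and 895. Its log2 difference of 0.29 ± 0.09 was of the same size but missed the threshold in limma (adjusted p = 0.0597), though DESeq2 called it. For this gene cKO replicate 3 lay just below WT replicate 2. Psmb6 (ENSMUSG00000018286), the caspase-like subunit, had 1155, 1405 and 1218 for WT and 1298, 1419 and 1170 for cKO. The groups overlapped, at 0.04 ± 0.09 (adjusted p = 0.812), with an interval of the change from -10.2% to 17.9%.

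None of the immunoproteasome cutting subunits rose, and the groups overlapped for all 3. Over all genes tested only 5.08% rose, and 15.9% lay higher in cKO without overlap. The median log2 difference of the 3 was 0.11, against 0.14 for all 48 genes, and the difference between the classes was not tested. Psmb8 (ENSMUSG00000024338), which takes the place of Psmb5, had 4096, 4671 and 4450 normalised reads for WT and 4813, 5031 and 4652 for cKO. WT replicate 2 lay between cKO replicates 3 and 1, and the log2 difference was 0.13 ± 0.06 (limma adjusted p = 0.186, unadjusted p = 0.0498). Psmb10 (ENSMUSG00000031897), the counterpart of Psmb7, gave 1680, 1814 and 1729 in WT and 1998, 1849 and 1811 in cKO (0.11 ± 0.06, adjusted p = 0.251). Psmb9 (ENSMUSG00000096727), the counterpart of Psmb6, gave 2628, 2900 and 2881 in WT and 2878, 2786 and 2950 in cKO. That is 0.04 ± 0.06 (adjusted p = 0.739), with an interval of the change from -6.11% to 11.9%. At an unadjusted p under 0.05 the count of the 3 was 1, and edgeR and DESeq2 called 0. On the opposite strand, exons of Tap1 overlap Psmb9 and exons of Gm20496 overlap Psmb8. Whether the counting used strand is not stated, so reads of such pairs cannot be told apart. Tap1, which encodes a peptide transporter, had means of 7814 ± 252 for WT and 7655 ± 127 for cKO.

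Each immunoproteasome subunit takes 1 position in the barrel that its constitutive partner would hold, so the ratio of the 2 messages was followed library by library. The log2 ratio of Psmb8 over Psmb5 was 2.43, 2.38 and 2.55 for WT and 2.26, 2.26 and 2.38 for cKO. WT replicate 2 lay only just above cKO replicate 3, and the cKO mean minus the WT mean was -0.15. For Psmb10 over Psmb7 the ratios were 1.03, 1.07 and 0.97 in WT and 0.95, 0.82 and 0.81 in cKO, with a difference in means of -0.16. These did not overlap either, but WT replicate 3 lay only just above cKO replicate 1. For Psmb9 over Psmb6 they were 1.18, 1.05 and 1.24 in WT and 1.15, 0.97 and 1.33 in cKO. That pair did not separate, and its means of 1.16 ± 0.10 and 1.15 ± 0.18 (SD, n = 3 each) differed by less than the spread between libraries. No test was run on these ratios.

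**Figure D2:**
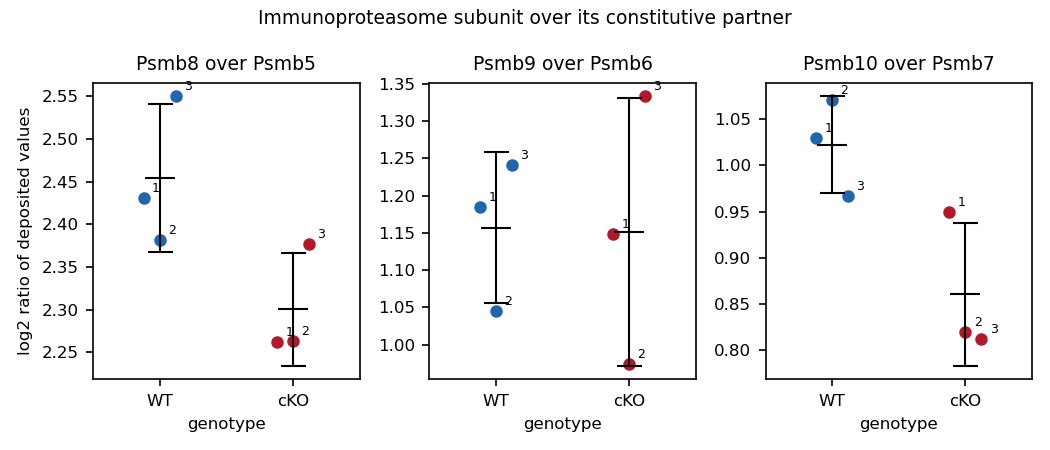
Log2 ratio of the deposited values of each immunoproteasome subunit to the constitutive subunit it replaces, in the 3 WT (blue) and 3 cKO (red) libraries; digits are replicate numbers, long bars means and short bars ± SD, and the axes do not start at 0. The ratio of Psmb10 over Psmb7 lies between 0.97 and 1.07 in WT and between 0.81 and 0.95 in cKO, while the ratios of Psmb9 over Psmb6 overlap.

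The base of the 19S particle is a ring of ATPases that unfold the substrate. Of its 6 genes only Psmc4 (ENSMUSG00000030603) rose, from WT values of 1300, 1364 and 1298 normalised reads to 1552, 1650 and 1546 in cKO, with the log2 difference 0.26 ± 0.06. Its adjusted p of 0.021 was the lowest of the 48 genes, and its highest WT library lay below its lowest cKO library. The other 5 gave log2 differences from 0.06 to 0.17. Psmc2 was tight in cKO, at 1531, 1528 and 1528 against 1358, 1378 and 1443 in WT, but did not pass (0.13, adjusted p = 0.15). Psmc6 was the lowest of the ring, with 1207, 1345 and 1298 in WT and 1351, 1334 and 1317 in cKO. There WT replicate 2 lay inside the cKO range, and the adjusted p was 0.596.

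Of 11 genes for the other subunits of the 19S particle, 2 rose. Psmd2, a scaffold subunit of the base that binds ubiquitin shuttle factors, went from 3030, 3291 and 3012 normalised reads in WT to 3711, 3817 and 3514 in cKO (0.24 ± 0.06, adjusted p = 0.0257). Psmd6, a subunit of the lid, went from 1146, 1094 and 1092 to 1325, 1259 and 1280 (0.21 ± 0.06, adjusted p = 0.044), the one gene of the 10 with its highest WT value in replicate 1. The groups did not overlap in either, but DESeq2 did not call Psmd6. Psmd14, the deubiquitinase of the lid, Psmd4, a ubiquitin receptor, and Psmd7, the partner of Psmd14, gave 0.15, 0.14 and 0.14 without overlap but did not pass (adjusted p = 0.149, 0.155 and 0.136). Psmd11, a lid scaffold, had the lowest difference of the 11. It stood at 1609, 1641 and 1632 in WT and 1704, 1710 and 1540 in cKO, with cKO replicate 3 below all WT libraries (0.02, adjusted p = 0.874). Psmd3 was similar at 0.02 (adjusted p = 0.853).

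None of the 7 genes that assist assembly passed in limma, edgeR or DESeq2, where in limma only 5.08% of all genes tested rose. In 1 of them, Psmd10, the unadjusted limma p was under 0.05, where 13.5% of all genes tested were higher at that level. Psmd10, known as gankyrin, helps to build the base and had the highest log2 difference of all 48 genes, 0.31 ± 0.11. Its values were 335, 411 and 452 normalised reads in WT and 504, 494 and 476 in cKO, without overlap, but the WT libraries ranged widely (adjusted p = 0.0982). Psmd9, another chaperone of the base, was the one gene below 0, with 456, 455 and 516 against 399, 498 and 514 (-0.02 ± 0.11, adjusted p = 0.919). The 4 genes for chaperones of the 20S core gave from 0.06 for Psmg1 to 0.18 for Psmg3. Psmg1 stood at 289, 298 and 280 in WT and 311, 280 and 317 in cKO, and Psmg3 at 189, 209 and 226 in WT and 224, 262 and 223 in cKO. Both overlapped between the groups (adjusted p = 0.721 and 0.36).

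The activator caps bind the ends of the barrel in place of the 19S particle. None of their 5 genes rose in limma, edgeR or DESeq2 (2 at an unadjusted limma p under 0.05). Over all genes tested only 5.08% rose in limma, and 13.5% were higher at that unadjusted level. Psme1 and Psme2 encode the interferon-inducible PA28 ring. Psme1 (ENSMUSG00000022216) had 3258, 3846 and 3644 normalised reads for WT and 4314, 4135 and 3925 for cKO. The groups did not overlap, but the log2 difference of 0.21 ± 0.07 missed the threshold (adjusted p = 0.0808). Exons of Emc9, with a WT mean of 105 normalised reads, overlap Psme1 on the opposite strand. Psme2 (ENSMUSG00000079197) stood at 2438, 2622 and 2589 in WT and 2827, 2801 and 2614 in cKO, where cKO replicate 3 fell just short of WT replicate 2 (0.11 ± 0.06, adjusted p = 0.25). Psme4, the gene of the large PA200 cap, varied least within WT, at 2040, 2034 and 2042, against 2214, 2203 and 2170 in cKO. Its difference of 0.11 did not pass (adjusted p = 0.202). Psme3, which encodes the nuclear PA28 form, gave 2920, 3081 and 2857 for WT and 3486, 3160 and 3111 for cKO, without overlap (0.14, adjusted p = 0.17). Psme2b, a single-exon copy of Psme2 that can share its reads, gave 1228, 1140 and 1312 in WT and 1328, 1136 and 1361 in cKO (0.05, adjusted p = 0.723). It also overlaps exons of 9930111J21Rik1 on the same strand, a gene with a WT mean of 2437 normalised reads, so the value of Psme2b is uncertain. Psmf1, which encodes the inhibitor PI31, had the smallest difference, 0.0057 ± 0.08 (adjusted p = 0.976). Psmc3ip had 38.4, 70.6 and 60.6 normalised reads for WT and 58.8, 70.1 and 56.8 for cKO (adjusted p = 0.713).

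**Figure D3:**
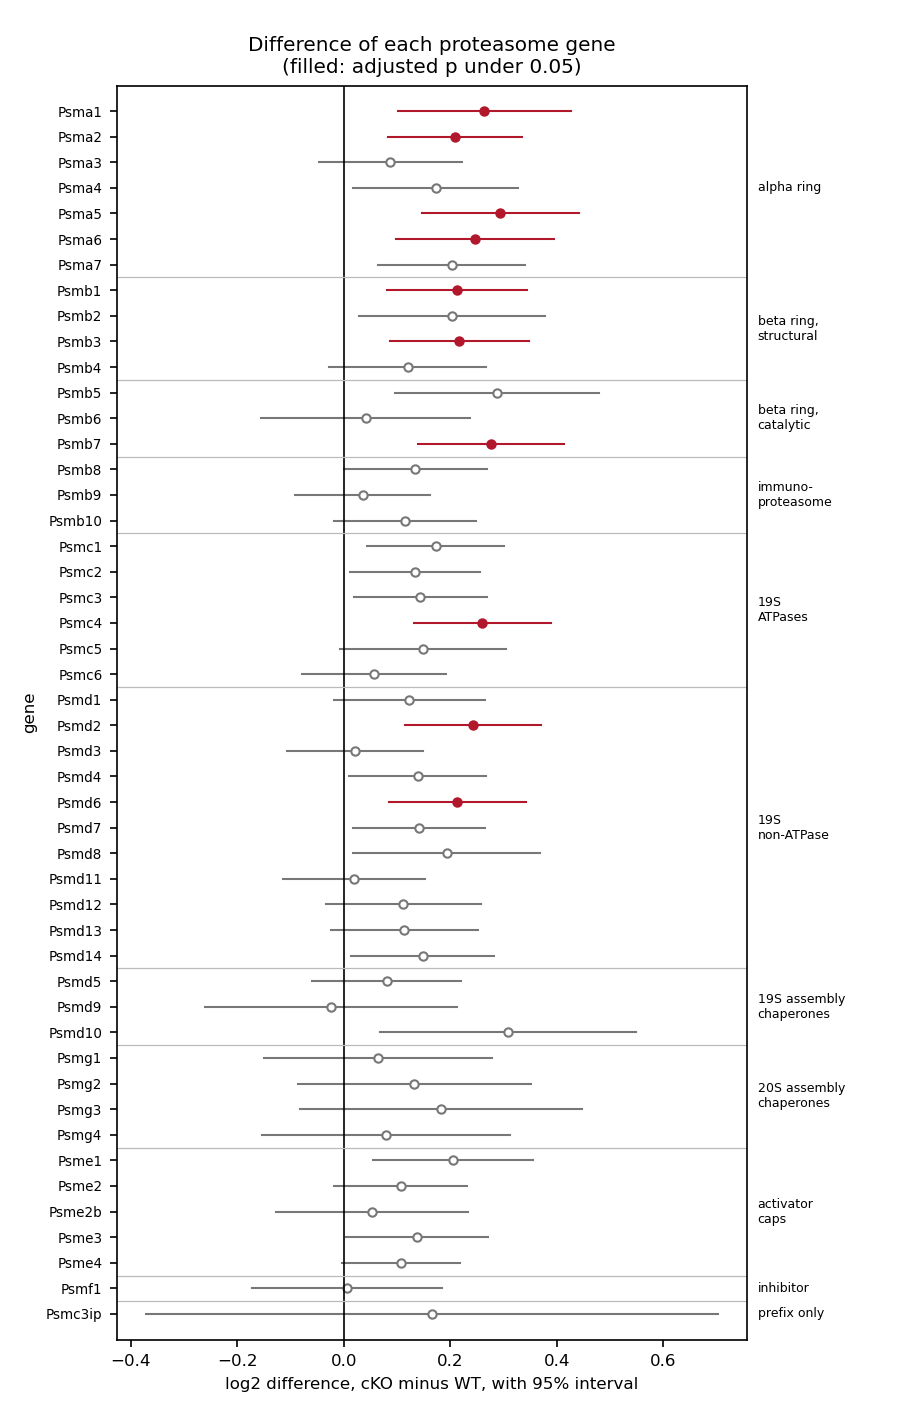
Log2 difference (cKO minus WT, horizontal axis) of each of the 48 genes with its 95% interval from limma, grouped by role; filled red points have an adjusted p under 0.05. The 10 red points lie between 0.21 and 0.29, and Psmd9 is the one point below 0.

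Levels of different genes can be compared only per length, here per kilobase of the principal coding transcript in GENCODE M21. In WT, Psme1 was highest at 3222 ± 269 normalised reads per kilobase, followed by Psmb8 at 2706 ± 178, Psme2 at 2650 ± 102 and Psmb9 at 2073 ± 112 (SD, n = 3 each). Psmb8 and Psme2 overlapped over the libraries, as did Psmb9 and the next gene, Psma7, at 1937 ± 139. These 4 genes all belong to the interferon-inducible set, but with all annotated exons merged as the length Psmb9 ranked 13 of the 48. Psmb10 stood at 1328 ± 51.6. Among the constitutive partners, Psmb5 stood at 895 ± 87.9, Psmb6 at 1578 ± 163 and Psmb7 at 738 ± 27.1. Within each exchange pair the immunoproteasome message made up 75.2% ± 1.12 for Psmb8, 56.8% ± 1.72 for Psmb9 and 64.3% ± 0.831 for Psmb10 in WT. In cKO these shares were 73.1% ± 0.897, 56.7% ± 3.06 and 61.6% ± 1.26. They depend on the length used: with all annotated exons merged, the WT shares were 59.3%, 53.3% and 80.3%.

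The rings and the 19S particle had levels within a few fold of one another in WT. The alpha genes ran from 549 normalised reads per kilobase for Psma2 to 1937 for Psma7, the non-cutting beta genes from 1060 to 1852, the ATPases from 574 to 1150 and the other 19S genes from 478 to 1337. By this length the assembly factors lay below both rings, from 183 for Psmd9 to 279 for Psmd10 and from 235 for Psmg3 to 502 for Psmg4. Psmf1 stood at 159. With merged exons this order did not hold: Psmg4, at 502, lay above Psma2 at 435 and Psmb7 at 250. The spread within a group was small, with a median coefficient of variation of 5.12% in WT and 3.91% in cKO over the 48 genes. Recovered reads of the genes lay between 172 and 5399 in a library, apart from Psmc3ip, which had as few as 35.

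**Figure D4:**
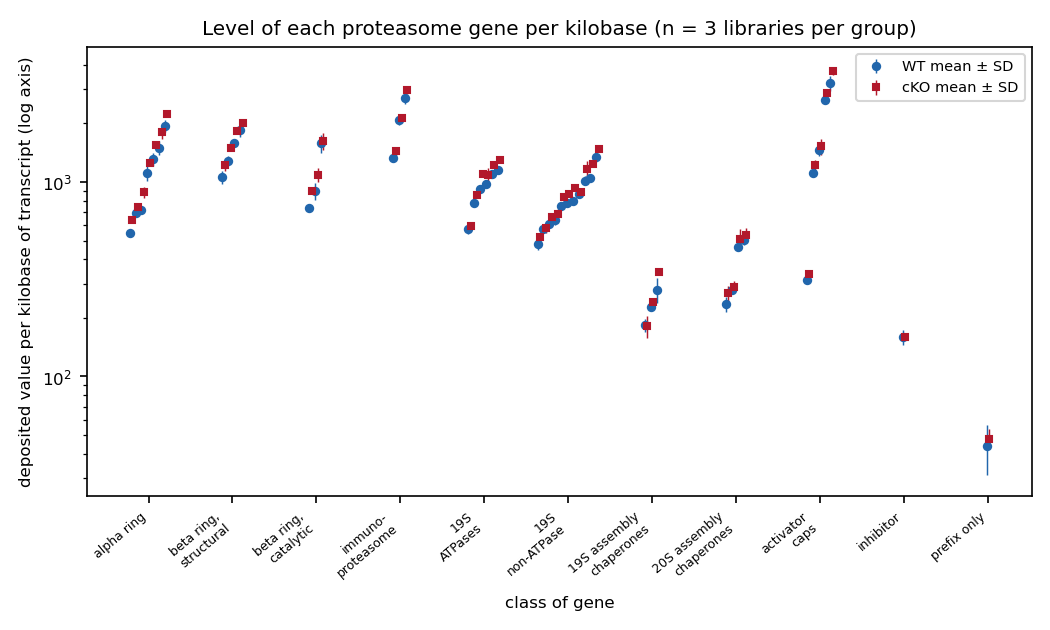
Deposited value per kilobase of transcript (log axis) for each of the 48 genes, by role; blue circles are WT means and red squares cKO means, with bars of ± SD over 3 libraries. By the principal transcript's length, Psme1, Psmb8, Psme2 and Psmb9 are the highest in WT and the assembly factors and Psmf1 lie below the rings; with merged exons Psme2b ranks 2 and Psmb9 13, and Psmg4 lies above Psma2 and Psmb7.

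Partners of the proteasome that lack the prefix were taken from lists of related genes. Of 11 measured subunits and cofactors, 1 rose and 0 fell: Sem1, the smallest subunit of the 19S lid, went from 1026 ± 72.0 to 1263 ± 51.1 normalised reads (SD, n = 3 each, log2 difference 0.30 ± 0.07, limma adjusted p = 0.0232). By edgeR and DESeq2 1 rose and 0 fell, and at an unadjusted limma p under 0.05 2 were higher and 0 lower. The share of the 11 that rose in limma was 9.09%, against 5.08% of all genes tested, and their median was 0.08. Pomp, the maturation factor of the 20S core, gave 0.11 (adjusted p = 0.349), and Adrm1, a ubiquitin receptor, -0.09 (adjusted p = 0.384). Among 14 genes of ubiquitin supply and delivery, 2 rose (14.3%) and 1 fell (7.14%), against 5.08% and 4.97% of all genes tested. Vcp, the unfoldase that extracts ubiquitinated proteins, rose by 0.25 ± 0.05 (adjusted p = 0.0211). Of the ubiquitin genes, Rps27a, a fusion with a ribosomal protein, rose by 0.34 ± 0.07 (adjusted p = 0.0127).

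Known regulators of these genes were looked at next. Beside the counts below, 5.08% of all genes tested rose and 4.97% fell in limma. At an unadjusted limma p under 0.05, 13.5% were higher and 13.3% lower. Nfe2l1 encodes the transcription factor NRF1, which raises proteasome genes when the protease is blocked. Its means were 2704 normalised reads for WT and 2503 for cKO (-0.11 ± 0.06, adjusted p = 0.27). Of 7 genes of that axis 0 rose and 1 fell, Mafk, a small Maf partner of NRF1 (-0.29 ± 0.08, adjusted p = 0.0493). By edgeR and DESeq2 0 rose, and at an unadjusted limma p under 0.05 0 were higher and 2 lower. Of 11 genes for interferon signalling to the immunoproteasome, 1 rose, Irf9, a part of the type I interferon factor (0.28 ± 0.07, adjusted p = 0.0232), and 0 fell. At an unadjusted limma p under 0.05 4 were lower, and edgeR called 0 and DESeq2 2 as lower. Irf1 and Nlrc5, activators of the immunoproteasome and of MHC class I genes, gave -0.24 ± 0.08 each (adjusted p = 0.0888 and 0.0852). None of 7 antigen processing partners passed in limma, edgeR or DESeq2 (2 higher and 1 lower at an unadjusted limma p under 0.05), and Tap1 gave -0.03 (adjusted p = 0.762).

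Promoter letters were searched because these genes lay on one side of 0. RefSeq windows from 250 bases before to 50 after the start (build GRCm38.p6) matched 41 of the 48 genes, with 44 windows. The motifs were searched on both strands. TGACNNNGC, the core of the element that NRF1 binds, was in 13.6% of these windows and in 12.4% of all 32851 windows. The core of the interferon response element was in 5 of the 44, or 11.4%, against 3.44% of all windows. A pair of kappaB forms and the STAT form TTCCNGGAA were in 0 of the 44, against 0.155%, 0.0883% and 1.15% of all windows. The 250 bases upstream of Psmb5 (chr14:54617996-54618245, minus strand) and Psmb6 (chr11:70525107-70525356, plus strand) both hold the NRF1 core. The log2 differences of these genes were 0.29 and 0.04, and a link between motif and difference was not tested. Psmb3 (chr11:97703184-97703433, plus strand), one of the 10 genes that rose, holds the interferon core. Psmb9 (chr17:34187331-34187580, minus strand) holds neither in this window. The search allowed no mismatch. Capitals mark the matches, and each sequence is written 5′ to 3′ on the gene's strand.
Psmb5: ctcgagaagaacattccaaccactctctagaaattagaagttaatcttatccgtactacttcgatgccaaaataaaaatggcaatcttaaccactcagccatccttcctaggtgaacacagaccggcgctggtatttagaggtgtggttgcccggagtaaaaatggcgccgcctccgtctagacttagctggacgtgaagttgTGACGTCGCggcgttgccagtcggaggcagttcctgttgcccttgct
Psmb6: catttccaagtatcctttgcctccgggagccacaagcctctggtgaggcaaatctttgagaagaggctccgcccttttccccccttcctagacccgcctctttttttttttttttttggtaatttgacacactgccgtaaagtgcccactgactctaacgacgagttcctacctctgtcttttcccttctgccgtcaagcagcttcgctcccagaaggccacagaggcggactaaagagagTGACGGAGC
Psmb3: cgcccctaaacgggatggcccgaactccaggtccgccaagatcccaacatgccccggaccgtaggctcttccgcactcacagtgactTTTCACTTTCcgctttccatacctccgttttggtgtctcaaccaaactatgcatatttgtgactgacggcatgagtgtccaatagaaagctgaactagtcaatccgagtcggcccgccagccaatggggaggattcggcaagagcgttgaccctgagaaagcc
Psmb9: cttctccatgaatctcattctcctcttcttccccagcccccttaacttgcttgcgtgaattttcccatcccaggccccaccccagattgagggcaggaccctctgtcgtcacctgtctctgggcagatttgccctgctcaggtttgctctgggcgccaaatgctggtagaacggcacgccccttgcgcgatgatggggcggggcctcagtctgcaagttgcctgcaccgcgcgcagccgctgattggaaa

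In Psme1 and Psmg4 the interferon core lies after the start, and in Psmb8 and Psmb10 the search found none of the 5 motifs. A match is a string of letters and no evidence of binding. Of the 5 genes with the interferon core, Psmb3 rose in limma, though not in DESeq2, while Psme1, Psmg4, Psmd4 and Psmd9 did not pass. Of these 4, Psme1 and Psmd4 had an unadjusted limma p under 0.05 (0.0116 and 0.0359). Beside both motif groups, 20.8% of the 48 genes rose. Of the 6 with the NRF1 core, Psmb5, Psmb6, Psmc6, Psmd9, Psmd12 and Psme4, none passed in limma, 1 had an unadjusted p under 0.05 (Psmb5), and DESeq2 called 1 and edgeR 0.

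Complexes whose subunits are related to those of the 19S lid were set beside these genes, chosen after the values above were seen. Of 12 genes of the translation factor eIF3, 4 rose and 0 fell, with a median log2 difference of 0.17 and 8 higher without overlap. These are 33.3% risen and 66.7% without overlap. The shares were 20.8% and 47.9% for the 48 proteasome genes, and 5.08% and 15.9% for all genes tested. Of 10 genes of the COP9 signalosome, 0 rose and 0 fell in limma, edgeR and DESeq2, with a median of 0.10 and 2 at an unadjusted limma p under 0.05 with cKO higher. These medians lay on either side of the 0.14 of the proteasome genes. The difference between the complexes was not tested.

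The calls depended on single libraries. Without WT replicate 1 or without WT replicate 3, 0 of the 48 genes passed in limma, though 14 and 17 had an unadjusted p under 0.05 with cKO higher and the medians were 0.12 and 0.14. Without cKO replicate 3 only Psma5 passed, without cKO replicate 1 the count was 4, and without cKO replicate 2 it was 6. These fits have 5 libraries, and over all genes tested the share that rose was then between 1.64% and 5.31%. None of the 10 genes was called under every alternative, and their highest adjusted p over the alternatives was between 0.0766 and 0.163. On recovered reads the count was 10 with edgeR, the same genes, and 9 with DESeq2, where Psmb3 and Psmd6 were lost and Psmb5 gained. The median of the 48 lay between 0.12 and 0.18 under all 14 alternatives.

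**Figure D5:**
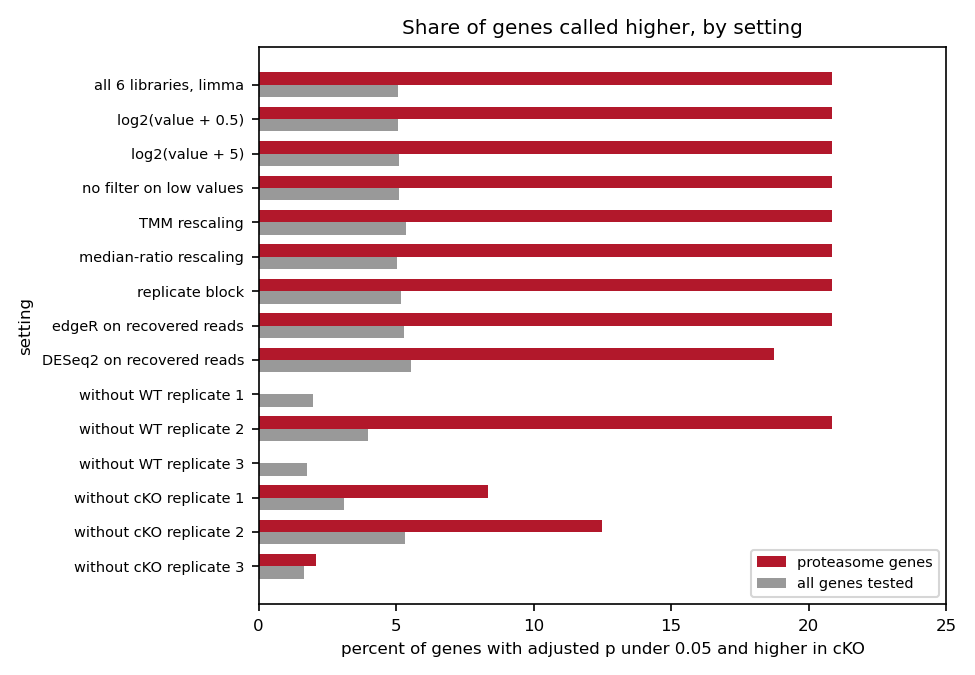
Percent of genes with an adjusted p under 0.05 and higher in cKO (horizontal axis), for the 48 proteasome genes (red) and all genes tested (grey), with all 6 libraries and under 14 alternatives. The red bar is 20.8% with all libraries and 0 without WT replicate 1 or WT replicate 3.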

How the data were processed

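The deposited table holds 1 value per gene and library for 6 libraries. The submitters' processing notes name bcl2fastq 2.17, Trimmomatic 0.36, the aligner STAR 2.5.2b and the mouse build mm9. The sources used here do not give the counting tool, its annotation or its strand setting. The deposited signal is a read count that the authors divided by 1 factor per library: all values were whole multiples of 1 read's worth within 0.02 of a read (100% per library), and in cKO replicate 1 the smallest stood for 2 reads. Per-library depth follows from these reads.

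GENCODE M21 (GRCm38) gave symbols for 14808 of the 14864 identifiers, and transcript lengths. limma 3.58.1 in R 4.3.3 (lmFit, eBayes with a trend) was run two-sided on log2(value + 1) with a genotype term and no covariate, on 14855 genes with a mean of at least 10. Adjusted p values are Benjamini-Hochberg over these genes, with a threshold of 0.05. On this scale the change of low genes is understated. In the text, ± after a log2 difference is its SE and after a level the SD. Alternatives were edgeR 4.0.16 and DESeq2 1.42.0 on the recovered reads, other pseudocounts (0.5 and 5), no filter, 2 rescalings, the replicate number as a block, and leaving out each library. The fits were tested on simulated data.

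The genes and lists were chosen with earlier results of these data known. Every member may be named. Values in every library are given for genes past the threshold, the exchange pairs, Psme1, Psme2 and the highest and lowest gene of each class. From related lists, genes past the threshold are named, plus Nfe2l1, Pomp, Irf1, Tap1 and Nlrc5, apart from genes of these lists that are not reported here. Names outside this rule were chosen after their values were seen.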

Additional observations from a re-analysis of the deposited data

How the results depend on the processing

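The median log2 difference of the 48 proteasome genes was 0.14 and ran from 0.12 to 0.18 over the 14 alternatives, a shift smaller in each than 0.0494, the SD of the library medians within a group. With 1 library left out, the count of these genes that rose ran from 0 to 10, that over all genes tested from 243 to 785, and that of genes that fell over all genes tested from 223 to 940, with 5 libraries in each fit. Under the other alternatives 9 or 10 of the 48 rose and 0 fell. For 7 genes the sign changed when 1 library was left out: Psmb6 ranged from -0.0262 to 0.123, Psmb9 from -0.00991 to 0.0613, Psmc3ip from -0.085 to 0.345, Psmd3 from -0.0115 to 0.0547, Psmd9 from -0.0915 to 0.0900, Psmd11 from -0.00671 to 0.0688 and Psmf1 from -0.0334 to 0.0774. None of them was called in any fit. With the replicate block, 767 genes rose and 784 fell, and the count of proteasome genes that rose was 10 again, though Psmb3 was lost and Psmb5 gained. The numbers share no stated source: deviations of same-numbered libraries correlated at -0.0745, -0.0200 and 0.147 across genes, and not every library correlated best with its own number. Psmc3ip had the fewest reads of the 48 genes and the widest SE (0.24), and Psmg1, Psmg2, Psmg3, Psmg4, Psmd9 and Psmd10, with WT means of 208 to 490 normalised reads, had SEs of 0.10 to 0.12.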
